A study of Mus musculus with 16 samples.

Results

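DBP was profiled in the mouse submandibular gland by CUT&Tag, which cuts and tags the DNA next to an antibody target with a tethered transposase, and 2 lists of 1-bp summits were deposited, 1 for each replicate. All summits on chromosomes 1 to 19 and X were taken, 49233 in replicate 1 and 10322 in replicate 2, out of 158107 summits in the 6 CUT&Tag lists of the study. Summits of both lists that lay within 200 bp of each other were counted as the same place. They gave 8468 regions, and 40764 summits of replicate 1 and 1839 of replicate 2 stood in 1 list only.

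The other CUT&Tag lists were 2 for BMAL1, the product of Arntl, and 2 for NR1D1. The labels describe the glands for all 3 targets as coming from untreated control mice and give the target under genotype ("Dbp mouse"), with no strain, allele, age or time of day. The glands were digested with collagenase and trypsin before the assay, so all cell types that survived digestion were profiled together. RNA-seq covered 10 libraries from glands of mice 6 to 8 weeks old, 2 each for unirradiated WT glands at ZT3, ZT9 and ZT15 (ZT counts the hours from lights on) and 2 each at 6 h and 24 h after 5 Gy of radiation, and only the 6 unirradiated libraries are described below. The irradiated libraries still entered the fit of the RNA values and the floor for kept genes. The labels do not say that replicates came from separate animals, so p-values measure only the spread between these samples.

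DBP belongs to the PAR bZIP family of transcription factors, with TEF and HLF. BMAL1 and CLOCK drive the Dbp gene through E-boxes, and DBP in turn activates genes that carry D-boxes, among them clock genes of the Period and Rev-erb families; the repressor NFIL3 competes for the same element. Dbp RNA and protein rise and fall steeply within a day in most tissues, so the amount of DBP on chromatin depends on the hour of collection.

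The sequences that carry the main finding are 2 promoters with DBP summits among the best ranked of each list, shown from 250 bases before the start site up to the base before it, with each D-box and E-box in capitals. They are RefSeq sequences of GRCm38.p6, printed 5′ to 3′ on the strand of the gene. Per3, a Period gene of the clock, is at chr4:151044666-151044915 on the minus strand, and Coq10b, a mitochondrial coenzyme Q binding protein, is at chr1:55052520-55052769 on the plus strand.
Per3: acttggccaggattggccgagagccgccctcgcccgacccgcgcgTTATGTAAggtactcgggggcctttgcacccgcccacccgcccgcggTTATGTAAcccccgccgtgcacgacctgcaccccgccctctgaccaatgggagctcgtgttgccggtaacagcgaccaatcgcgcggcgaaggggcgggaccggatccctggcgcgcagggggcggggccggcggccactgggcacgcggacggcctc
Coq10b: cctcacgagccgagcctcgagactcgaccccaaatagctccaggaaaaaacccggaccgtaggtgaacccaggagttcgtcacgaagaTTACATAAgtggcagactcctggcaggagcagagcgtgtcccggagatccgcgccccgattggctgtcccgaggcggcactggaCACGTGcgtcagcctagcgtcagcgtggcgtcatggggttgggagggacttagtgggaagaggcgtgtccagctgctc
In Per3 the D-boxes began 205 and 158 bases before the start, and the DBP summits lay 224 bases before it in replicate 1 and 213 in replicate 2. A nearer start, that of Gm38529 on the other strand, lay 30 bp from the region, and its promoter window holds the same D-boxes. In Coq10b the D-box began 162 bases and the E-box 78 bases before the start, and the summits lay 139 and 133 bases before it, between the motifs.

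Other promoters with a region of both lists and a D-box are shown as stretches of 61 bases around the D-box, again in capitals. Yif1b (chr7:29238192-29238252, plus strand) encodes a protein of the early secretory pathway, Hnrnpa2b1 (chr6:51469891-51469951, minus) an RNA-binding protein, Sumo2 (chr11:115536314-115536374, minus) a ubiquitin-like modifier, Ogt (chrX:101639933-101639993, plus) the O-GlcNAc transferase, Aktip (chr8:91134173-91134233, minus) an AKT-interacting protein, and Abhd11 (chr5:135008902-135008962, plus) a mitochondrial hydrolase.
Yif1b: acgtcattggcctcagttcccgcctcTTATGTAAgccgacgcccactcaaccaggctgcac
Hnrnpa2b1: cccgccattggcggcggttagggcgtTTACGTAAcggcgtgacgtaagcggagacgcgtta
Sumo2: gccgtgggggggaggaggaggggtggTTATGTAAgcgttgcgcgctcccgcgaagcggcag
Ogt: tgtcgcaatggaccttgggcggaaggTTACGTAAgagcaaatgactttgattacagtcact
Aktip: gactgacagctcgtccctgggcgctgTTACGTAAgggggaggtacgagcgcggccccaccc
Abhd11: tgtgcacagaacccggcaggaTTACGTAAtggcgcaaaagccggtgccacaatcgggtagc
Of the 18 core clock and PAR bZIP genes with a promoter window, counted with Nfil3, Per3 alone held a D-box there, and 3 clock promoters with regions of both lists and no D-box are shown for contrast. Per1 (chr11:69098757-69098817, plus) and Bhlhe41 (chr6:145865539-145865599, minus), a clock repressor also called DEC2, are shown around the E-box in capitals, and Nr1d2 (chr14:18239152-18239212, minus), which encodes REV-ERB beta, around its DBP summits, where neither motif was found.
Per1: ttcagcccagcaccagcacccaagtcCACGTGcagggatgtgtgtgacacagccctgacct
Bhlhe41: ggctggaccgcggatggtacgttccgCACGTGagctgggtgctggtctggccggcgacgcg
Nr1d2: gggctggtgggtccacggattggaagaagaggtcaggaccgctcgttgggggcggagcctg

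The lists differed in length, and the shorter was mostly contained in the longer: 8483 summits of replicate 2 (82.2%) had a partner, against 8469 summits of replicate 1 (17.2%). The positions within 200 bp of a replicate 1 summit cover 0.755% of the span between the first and last gene of the chromosomes. Partners lay a median of 40 bp apart, 58.1% lay within 50 bp, and 179 pairs sat on the same base. At the limit of the pairing, 403 replicate 2 summits had their partner over 150 bp away and 144 had the nearest replicate 1 summit past 200 bp but within 250 bp, while 963 were over 5000 bp from one.

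The deposited score has no stated scale and served here for ranks inside each list. It separated places seen in both lists from the rest. Of the best-scored decile of replicate 1, 73.6% were in replicate 2, of the next decile 38.2%, and of the last decile 2.22%. In replicate 2 the share with a partner went from 95.8% in the best decile to 67.3% in the last. The median rank of a replicate 1 summit was 12.6% of the way down its list when it had a partner and 57.0% when it had none. In replicate 2 the corresponding medians were 45.1% and 70.1%.

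**Figure D1:**
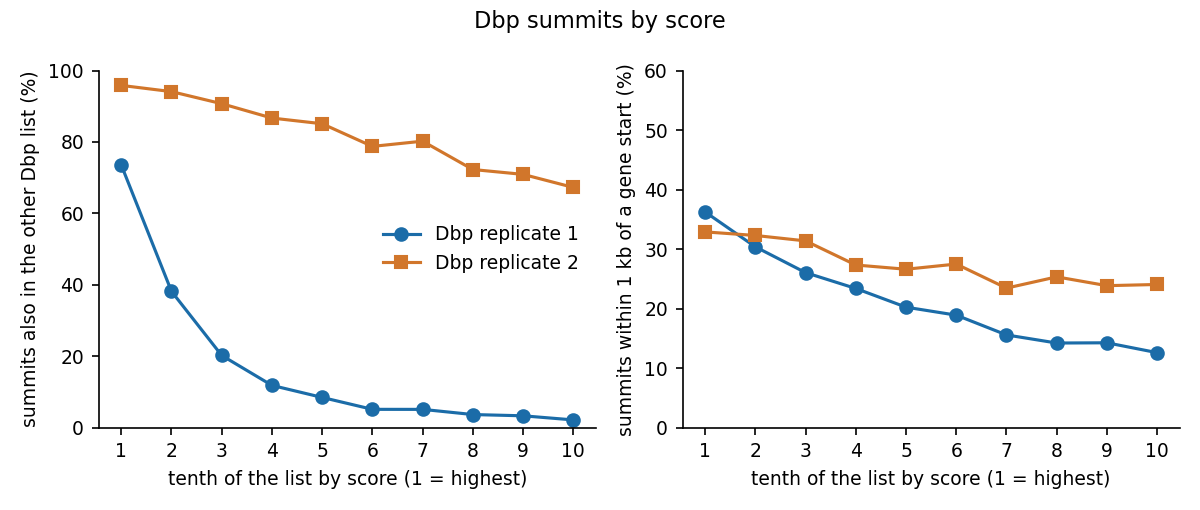
Dbp summits by decile of the deposited score (x axis, 1 is the highest), for replicate 1 (circles) and replicate 2 (squares). Left, percent of summits with a summit of the other Dbp list within 200 bp, which falls from 73.6% to 2.22% in replicate 1 and from 95.8% to 67.3% in replicate 2; right, percent within 1 kb of a gene start, which falls from 36.3% to 12.6% and from 32.9% to 24.1%.

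DBP summits concentrated at gene starts, and those seen in both lists did so most. Of the regions, 30.2% lay within 1 kb of a RefSeq start, against 19.3% of the summits of replicate 1 only and 14.9% of those of replicate 2 only, beside 2.19% of the span. A further 36.7% of regions lay elsewhere inside a coding gene and 33.1% outside genes. For whole lists, replicate 1 and then 2, the share at starts was 21.2% and 27.5% for DBP, 29.6% and 15.5% for BMAL1 and 13.7% and 26.0% for NR1D1. No start sites of chromosome 18 were used, and its summits were left out of these shares.

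The side of the start also differed between classes. Of the replicate 1 summits of both lists within 1 kb of a start, 70.2% lay upstream, with a median 64 bp before it. Summits of replicate 1 only were split almost evenly, with 51.7% upstream and a median 7 bp before the start, and 48.1% of those of replicate 2 only were upstream. The bin from 100 bp before to the start held 10.0% of all replicate 1 summits of both lists.

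**Figure D2:**
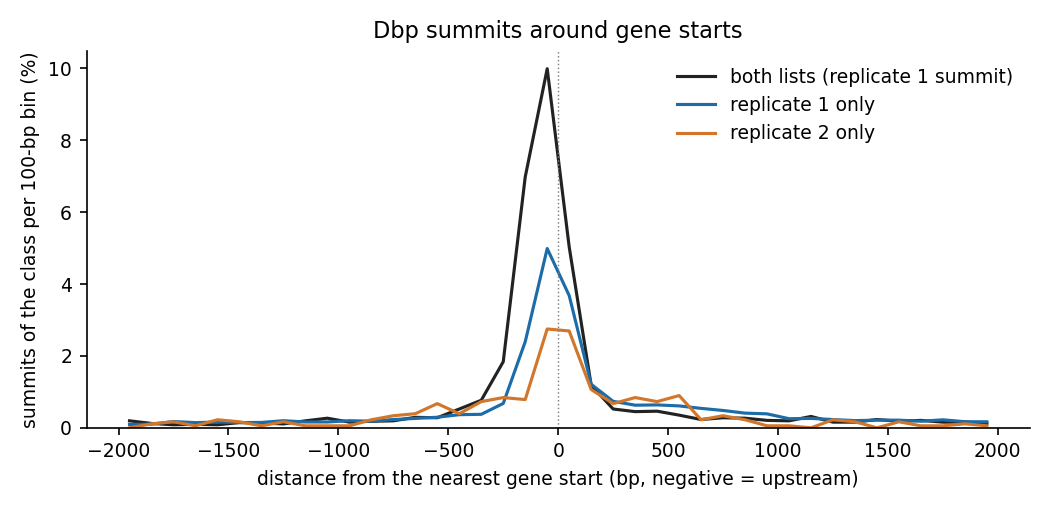
Percent of the summits of each class (y axis) in 100-bp bins of distance from the nearest gene start (x axis, bp, negative is upstream), for replicate 1 summits of both lists, summits of replicate 1 only and summits of replicate 2 only. All 3 lines peak at the start, and the line for both lists is the highest, at 10.0% in the bin just upstream.

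Regions were densest on chromosomes 11 and 19, with 5.90 and 5.67 per Mb, and sparsest on X, with 0.428 per Mb. On X summits were few, with 5.57 per Mb in replicate 1 and 0.516 per Mb, 88 in all, in replicate 2. Of the replicate 1 summits on X, 7.68% were in replicate 2, where every autosome had between 15.6% and 20.4%. Of the replicate 2 summits on X, 82.95% were in replicate 1, near the 82.2% of the whole list. Chromosome 11 holds 13.2 coding genes per Mb and X holds 5.66, the same density as chromosome 12, which had 3.26 regions per Mb.

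Most DBP regions were also in lists of the other targets. Of the 8468 regions, 75.1% had a summit of BMAL1 replicate 1 within 200 bp, 50.9% of BMAL1 replicate 2, 32.1% of NR1D1 replicate 1 and 80.0% of NR1D1 replicate 2. In all, 1880 regions (22.2%) were in all 4 of these lists and 887 (10.5%) in none. Summits of replicate 1 only were most often in the 2 longest of the other lists, NR1D1 replicate 2 (54.0%) and BMAL1 replicate 1 (43.4%). Those of replicate 2 only were most often in the 2 shortest, BMAL1 replicate 2 (45.4%) and NR1D1 replicate 1 (32.7%), and less often in NR1D1 replicate 2 (17.7%) and BMAL1 replicate 1 (14.8%).

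Lists shared summits across targets as well as within them. With each list cut to its 9578 best-scored summits, the length of the shortest, Dbp replicate 1 shared 60.7% with NR1D1 replicate 2, 56.9% with BMAL1 replicate 1 and 54.6% with Dbp replicate 2. Dbp replicate 2 shared more with Dbp replicate 1, 54.7%, than with any other list, the next being NR1D1 replicate 2 with 43.4%. No control antibody library was used here, so signal specific to DBP and signal of open chromatin cannot be told apart from these overlaps.

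Position and rank moved with the number of other lists. The regions in none of the 4 had their replicate 1 summit at a median of 17.3% down the list, and 6.88% of them lay within 1 kb of a start. The regions in all 4 had a median of 6.24% and lay at starts in 38.4%.

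The element known for DBP was read in the promoter windows, which run from 250 bases before to 50 after a RefSeq start. A D-box was TTATGTAA or TTACGTAA on either strand, and an E-box CACGTG. D-box matches in windows of both Dbp lists overlapped none of the other motifs searched, which were the E-box, the CRE (TGACGTCA), the GC-box (GGGCGG), the AP-1 site (TGANTCA), the RORE, the NFI site and the CTCF core. A match is a description of the letters, not a binding site.

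D-boxes were present in 346 of all 32585 windows (1.06%). They were present in 40 of the 1928 windows with summits of both Dbp lists (2.07%, exact 95% binomial interval 1.49 to 2.82) and in 41 of the 4740 windows with a replicate 1 summit only (0.865%, interval 0.621 to 1.17). The 120 windows with a replicate 2 summit only held 5 (4.17%, interval 1.37 to 9.46). Windows with a BMAL1 or NR1D1 summit and no DBP summit held 4 in 1953 (0.205%, interval 0.0558 to 0.524). A rise from all windows to windows of both Dbp lists was not particular to the D-box. The CRE went from 1.8% to 3.5%, the CTCF core from 1.2% to 2.2% and the GC-box from 35.9% to 76.0%. The E-box rose too, while the AP-1 site, RORE and NFI site fell. In windows with a BMAL1 or NR1D1 summit only, the CRE was at 3.3%, the CTCF core at 1.9% and the GC-box at 65.3%. Intervals cover counting error only, and neighbouring windows share bases: the 40 windows belonged to 38 genes and held 38 distinct D-boxes.

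The D-boxes lay in the best-ranked regions. When the windows of both lists were put in quartiles by the sum of their rank shares, 30 of 482 in the best quartile held a D-box (6.22%, interval 4.24 to 8.77), against 3, 6 and 1 of 482 in the others. E-boxes changed little over the same quartiles, from 66 of 482 (13.7%) to 55 of 482 (11.4%). The 30 windows held 28 distinct D-boxes, in 28 genes. The median GC share of the quartiles was 64.2%, 63.0%, 63.7% and 62.7%, best to last.

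The same held for each Dbp list alone and set it apart from the lists of the other targets. Of the 500 windows with the best-scored summits, 29 held a D-box in Dbp replicate 1 (5.80%, interval 3.92 to 8.22) and 28 in replicate 2 (5.60%, interval 3.75 to 7.99). The number was 7 in each BMAL1 list, with an upper bound of 2.86%, and 3 and 5 in the NR1D1 lists, with upper bounds of 1.74% and 2.32%. E-boxes were most frequent in the BMAL1 lists: 181 and 217 of 500 in BMAL1, 59 and 72 in DBP, and 61 and 59 in NR1D1. The intervals of both Dbp lists lay above those of all 4 other lists for the D-box.

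**Figure D3:**
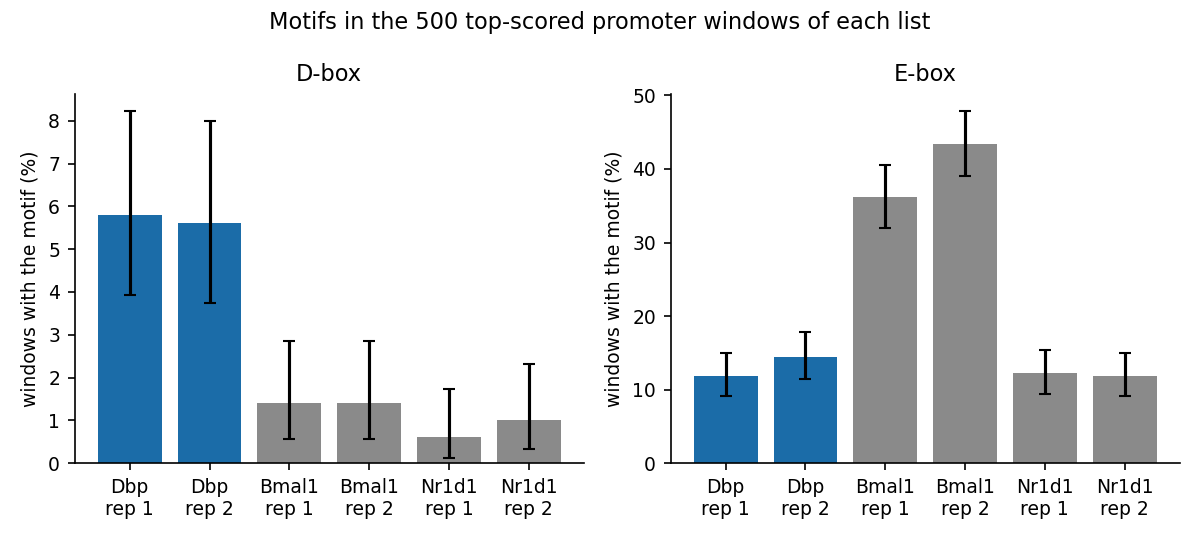
Percent of the 500 promoter windows with the best-scored summits of each list that hold a D-box (left) or an E-box (right), with exact 95% binomial intervals as bars. D-boxes reach 5.80% and 5.60% in the Dbp lists and at most 1.40% elsewhere, and E-boxes reach 36.2% and 43.4% in the BMAL1 lists and at most 14.4% elsewhere.

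D-boxes were also most frequent where DBP stood alone. Among windows of both Dbp lists, 5 of the 20 whose region was in no other list held a D-box (25.0%, interval 8.66 to 49.1), and 8 of the 71 in 1 other list did (11.3%, interval 4.99 to 21.0). The share was 12 of 634 (1.89%) with 2 other lists, 10 of 643 (1.56%) with 3 and 5 of 560 (0.893%, interval 0.291 to 2.07) with all 4. E-boxes were in 2 of the 20 windows with no other list and in 87 of the 560 with all 4 (15.5%). The median GC share moved with these groups, from 51.8% with no other list to 65.3% with all 4, and its part in the result was not tested.

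Base composition and distance bear on these counts. The median GC share was 63.3% in windows of both Dbp lists and 62.3% in those of replicate 1 only, against 50.3% in windows with no DBP summit, which are richer in the letters of the D-box and held it in 258 of 25415 (1.02%). With 1 mismatch allowed, the D-box was in 18.7% of the best quartile of windows and 6.85% of the last, but in 17.3% of all windows. The D-box lay a median of 31.5 bp from the replicate 1 summit and 42 bp from the replicate 2 summit, and the E-box 54.5 and 54 bp. The CRE lay 64 and 40 bp away, so it was about as near to the replicate 2 summit as the D-box. In windows of replicate 1 only, the D-box lay a median of 30 bp from the summit. Of the 2 forms, TTACGTAA was in 12 of the 1928 windows (0.622%) against 39 of all 32585 (0.120%), and TTATGTAA in 28 (1.45%) against 307 (0.942%).

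Of the 26794 genes with a start in the table, 2937 (10.96%) had a region of both lists within 1 kb of a start, 6949 a replicate 1 summit only, 35 a replicate 2 summit only, and 16873 none. Core clock genes were well represented: 7 of the 14 with a listed start had a region of both lists there, beside 23.0% of kept genes with a start. So did Tef, alone among the PAR bZIP genes and their competitor Nfil3, 4 genes in all. By whole gene, with 1 kb on either side, 13 of the 18 clock genes held at least 1 region, 27 regions in all, against 21.4% of coding genes. Gene length was not matched in this count, which takes in Rora, with regions 438521 bp and further after its start.

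The densest 100 kb in the genome for DBP regions was the locus of Nr1d1, which encodes REV-ERB alpha, the repressor that acts through ROREs. The window chr11:98700001-98800000, which also holds Thra, the thyroid hormone receptor gene that overlaps it, had 13 regions. Summits of the other targets were dense there too. BMAL1 replicates 1 and 2 had 19 and 14 and NR1D1 replicates 1 and 2 had 5 and 17, beside 27 and 13 for DBP. The replicate 1 summits of the 3 regions inside Nr1d1 lay 8, 1330 and 2317 bp after its start, and the middle one was the best ranked, 435th in replicate 1 and 189th in replicate 2. Windows with 8 regions included those of Tef and of Alas1, the first enzyme of heme synthesis.

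Among the other repressors, Per3 stood out by rank: its upstream summit was 3rd in replicate 2 and 75th in replicate 1. Per1 had regions with replicate 1 summits 4041, 1862 and 169 bp upstream of its start, and all 3 coincided with summits of all 4 other lists. Per2 had no start in the table, and within the gene and its flanks it held 2 regions, the better ranked 112th in replicate 2 and 735th in replicate 1. Cry2 had 1 region at its start, and Cry1 none there, with a replicate 1 summit 418 bp upstream and a region 23031 bp after the start. Nr1d2 had 1 region, 76 bp upstream, ranked 94th and 20th. Bhlhe41 had regions with replicate 1 summits 130 and 875 bp upstream.

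Among the activators, Arntl had a region 214 bp upstream of its start, ranked 1449th and 2174th, and 4 regions in all. Clock had replicate 1 summits only, at 230 and 239 bp upstream of its starts, and Npas2, its paralog, had a single replicate 1 summit 43174 bp after its start. Rora, an activator at ROREs, had none near its start but held one of the best-ranked summits of the genome 438521 bp after it, 40th in replicate 1 and 35th in replicate 2.

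At the Dbp gene itself the lists did not meet. Replicate 1 had a summit 211 bp upstream of the start, ranked 6755th, and replicate 2 one 432 bp upstream, ranked 3679th, which put them past the limit of 200 bp; both coincided with summits of all 4 other lists. Ciart, a repressor of the clock, was similar, with summits 550 bp upstream in replicate 1 (479th) and 77 bp upstream in replicate 2 (290th). Tef had regions 1105 and 526 bp upstream of one of its starts, Hlf 1 region 35599 bp after its start, and Nfil3 1 region 6187 bp after its start.

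The best-ranked regions of both lists were mostly far from genes of the clock. The first was at chr15:75086862-75086876, ranked 15th and 1st, 25068 bp from the start of Ly6c2 and in all 4 other lists. The next were inside Zbtb20, a zinc finger repressor, at chr16:42947284-42947287, and at chr4:45100622-45100623, 7491 bp from the start of Tomm5, a subunit of the mitochondrial import pore. Coq10b was the fourth, with ranks 4 and 8. The ninth was the region at Per3, 218 bp from the Per3 start and 30 bp from the start of Gm38529 on the other strand. Nt5dc1 was the tenth, 97 bp upstream of the start. At the starts of genes with kept RNA values the order went on with Yif1b, Esrra (an orphan nuclear receptor of mitochondrial genes), Hnrnpa2b1, Nr1d2, Sumo2, Fam120b, Ogt and Naa60, an acetyltransferase of the Golgi.

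Several of the strongest summits of 1 list had a near miss in the other. Sec62, a subunit of the translocation channel of the endoplasmic reticulum, was among the 5 best of replicate 1 only, at 350 bp after its start, and of replicate 2 only, at 8 bp before it, 358 bp apart. Those in Abl1 and near Yipf6 missed a partner by a few bases, at 208 and 205 bp. The replicate 1 summit at chr9:59053886, 17445 bp upstream of Neo1, had no replicate 2 summit within 237636 bp. The best-scored summit of replicate 2 only was at chr17:39843304, 911 bp from the nearest replicate 1 summit, and another of its 5 best was at chr17:39845911. The nearest start to both was that of AY036118, 55081 and 52474 bp away. Summits in repeated sequence were not left out here, and whether these are such summits was not tested.

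RNA levels are FPKM as deposited, fragments scaled to transcript length and library. Genes with DBP summits at the start were expressed more often and more highly. The floor for a kept gene, 1 FPKM in 2 or more of the 10 libraries, was reached by 2457 of the 2937 genes with a region of both lists (83.7%), by 78.1% with replicate 1 summits only, and by 16.6% with no summit. Among these kept genes the median of the mean FPKM over the 6 unirradiated libraries was 13.5, 9.93 and 3.10. The medians moved little with time: 13.1 at ZT3, 12.9 at ZT9 and 13.8 at ZT15 for genes with regions of both lists, and 2.98, 2.66 and 3.47 for genes with none.

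The share of genes with a region of both lists went up with the RNA level, from 54 of 5821 genes listed at 0 (0.928%) to 145 of 409 genes at 100 to 1000 FPKM (35.5%). The 38 genes with a mean above 1000 FPKM were split, with 16 that had a region (42.1%) and 20 with no summit of either list. Of the 13 genes above 1000 FPKM in each of the 6 libraries, a count chosen after seeing the data, 11 had a region (84.6%), and Bpifa2 and Klk1 had no summit. Those with a region included the secretoglobins Scgb1b27 and Scgb2b27, Pip, Prol1 and Car6, all secreted by acinar cells, and the translation genes Eef1a1, Tpt1, Rpl10 and Rpl26. Those without included Klk1, 9 of the Klk1b kallikreins, the Dcpp genes, Smr3a and Crisp3. Some of these means came from part of the libraries. Klk1b9 was at 9722 and 22340 FPKM at ZT3, 91.4 and 138.9 at ZT9, and 261.4 and 2809 at ZT15. Crisp3 was at 18480 and 32710, 371.3 and 642.7, and 1084 and 5094 in the same order. Klk1b26, which had a region, was at 19200 and 23610, 382.3 and 867, and 1522 and 5815. These genes were highest in the unirradiated libraries with the Y-linked transcript Ddx3y, both of ZT3 and ZT15 replicate 2. Amy1, which had a region, was at 26.4, 12.8 and 111 FPKM in the replicate 1 libraries of ZT3, ZT9 and ZT15 and at 4167, 1108 and 19200 in the replicate 2 libraries. Smr3a was listed at 0 in replicate 1 of ZT3 and ZT9 and was at 9666 and 1903 FPKM in replicate 2 of those times. Dcpp2 was at 4.40 in ZT9 replicate 2 and at 13150 or more in the other libraries. Klk1b, Scgb, Amy and Dcpp genes have near-identical copies, and how the authors placed reads shared by copies is not stated.

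**Figure D4:**
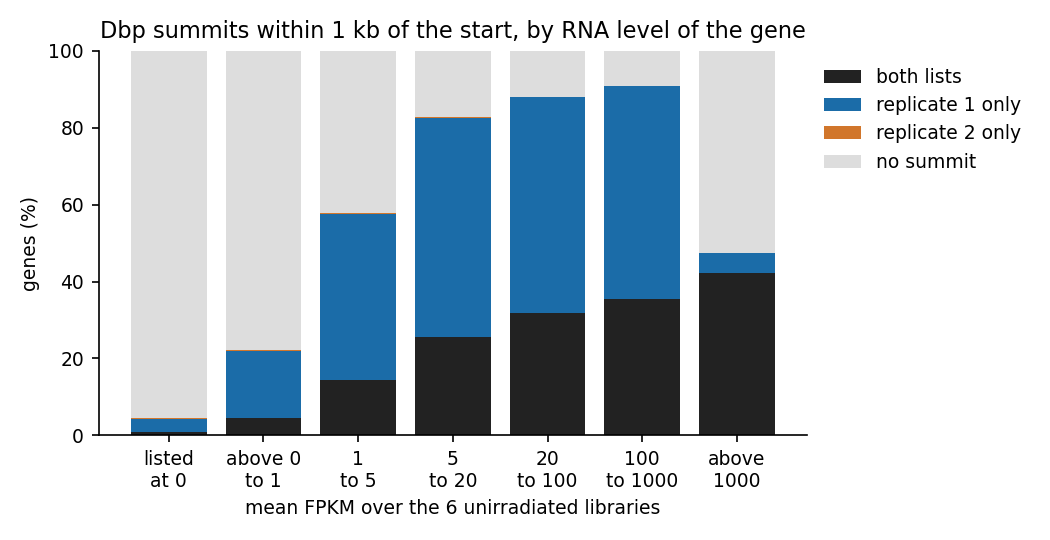
Percent of genes (y axis, stacked bars) with a Dbp region of both lists, a summit of replicate 1 only, of replicate 2 only or of neither within 1 kb of a start, by mean FPKM over the 6 unirradiated libraries (x axis). The share with a region of both lists goes from 0.928% of genes listed at 0 to 42.1% of the 38 genes above 1000 FPKM, where 52.6% have no summit.

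By role in the gland, the folding machinery of the endoplasmic reticulum was marked most. Of 16 genes of the unfolded protein response and protein folding with a start, 11 had a region of both lists, 4 a replicate 1 summit only and 1 a replicate 2 summit only. Among kept genes with a start 23.0% had a region, and among all genes with a start 10.96%. Hspa5 (BiP) had its region 43 bp from the start, and Xbp1, the transcription factor of secretory cells, 207 bp. Of 16 listed acinar genes 7 had a region, among them Bhlha15 (MIST1), the acinar transcription factor, at 32 bp, and the secreted product Pip at 30 bp.

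The other lists are read beside the shares among kept genes with a start, of which 23.0% had a region, 50.8% a replicate 1 summit only and 26.1% no summit. The lists take every gene with a start, kept or not. Over all genes with a start these shares were 10.96%, 25.9% and 63.0%. Fluid secretion genes were near the shares of kept genes: 4 of 21 had a region (Atp1b1, Atp1b3, Itpr3 and Orai1, subunits of the sodium pump and channels of calcium release and entry) and 12 a replicate 1 summit only. Of 16 genes of the granular convoluted tubule, a duct segment rich in kallikreins and growth factors, 13 had no summit and 2 a region, Nrtn and Klk1b26. Among duct genes 1 of 11 had a region, Tfcp2l1. Regions were at the starts of 6 of 18 other genes known to follow the clock, among them Sgk1, a kinase of ion transport, Tfrc, the transferrin receptor, Fmo2, a flavin monooxygenase, and Ppp1r3c, a glycogen-targeting subunit of protein phosphatase 1. They were at 3 of 17 p53 targets (Ccng1, Sesn1 and Btg2), at 4 of 17 ribosomal protein genes and at 5 of 15 epithelial transcription factors, among them Grhl1 and Tfap2a. Genes that mark T cells, B and plasma cells, macrophages, fibroblasts, endothelium, skeletal muscle and erythroid cells had none, at 0 of 8, 0 of 4, 0 of 7, 0 of 5, 0 of 6, 0 of 7 and 0 of 5 starts, and no summit of 1 list either. In bulk tissue, fewer cells of a type and a weaker signal per cell cannot be told apart.

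No gene with a region of both lists passed the test for a change across ZT3, ZT9 and ZT15 (limma F test over all 15161 kept genes, adjusted p under 0.05), where 3 of 15161 passed (0.0198%). None of the 10688 kept genes with a start passed either, so this 0 does not set genes with a region apart. At an unadjusted p under 0.05 the F test gave 352 of 2457 (14.3%), beside 13.1% of all kept genes, 13.5% of those with replicate 1 summits only and 10.8% of those with none. Genes at least 2-fold higher at ZT9 than at ZT3 with no overlap between libraries numbered 45 of 2457 (1.83%), against 2.14% of all kept genes, and 2-fold lower genes 49 (1.99%), against 4.02%. At ZT15 against ZT3, 26 genes were higher (1.06%, background 1.68%) and 33 lower (1.34%, background 2.02%) by the same rule, and at ZT15 against ZT9, 19 were higher (0.773%, background 2.06%) and 6 lower (0.244%, background 0.528%). Among the 10688 kept genes with a start, which alone could have a region, the shares in the same order were 1.83%, 3.14%, 1.24%, 1.82%, 1.80% and 0.365%. Genes with a region were thus level with them for higher at ZT9 than at ZT3 and below them in the other 5 counts, and these differences were not tested. Both ZT3 libraries had Ddx3y, a Y-linked transcript, at 18.2 and 15.9 FPKM and Xist, transcribed from the inactive X, at 0.0307 and 0.0151. Both ZT9 libraries had Ddx3y listed at 0 and Xist at 26.0 and 24.9, so sex and time cannot be told apart between ZT3 and ZT9. The ZT15 libraries differed from each other, with Xist at 27.1 and Ddx3y listed at 0 in replicate 1 and Xist at 0.0231 and Ddx3y at 18.7 in replicate 2, so each ZT15 mean joins both patterns.

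Among clock genes with a DBP region at the start, none passed the adjusted test, and their order of levels over the 3 times differed. Per3 was at 4.05 and 1.60 FPKM at ZT3, 29.5 and 20.5 at ZT9, and 13.2 and 14.3 at ZT15. The groups did not overlap, and the log2 difference of FPKM + 1 was 2.82 ± 0.377 (SE, n = 2 and 2) for ZT9 against ZT3, with a limma adjusted p of 0.180. This SE and those below came from the limma fit of all 10 RNA libraries, irradiated ones included. Xist was at 0.0230 and 32.0 FPKM in the libraries at 6 h after radiation and at 0.0689 and 58.3 at 24 h. Ddx3y was at 13.7 and 0, and at 23.7 and 0. As at ZT15, the sexes thus differed within these groups, and the spread behind each SE and adjusted p takes in that difference. Coq10b was at 7.92 and 8.66 at ZT3, 18.4 and 21.7 at ZT9, and 14.4 and 22.1 at ZT15. Its ZT3 libraries were below all the others (log2 difference 1.18 ± 0.224 for ZT9 against ZT3, limma adjusted p = 0.200).

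Nr1d1 was at 27.1 and 12.9 FPKM at ZT3, 67.8 and 51.5 at ZT9, and 3.47 and 9.11 at ZT15. Its ZT9 libraries were above all others and its ZT15 libraries below all others (log2 difference 1.60 ± 0.479 for ZT9 against ZT3, limma adjusted p = 0.194). Per1 was at 6.61 and 6.93 at ZT3, 24.7 and 21.2 at ZT9, and 18.3 and 15.4 at ZT15. Tef was at 29.4 and 15.98 at ZT3, 72.3 and 105.4 at ZT9, and 56.6 and 63.9 at ZT15. In both genes the 3 groups did not overlap and ZT9 was highest (limma adjusted p = 0.224 and 0.199). Cry2 had the same order, with means of 3.47, 10.7 and 8.35.

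Arntl ran the other way, at 9.41 and 15.6 FPKM at ZT3, 0.803 and 0.855 at ZT9, and 3.44 and 2.59 at ZT15 (log2 difference -2.84 ± 0.292 for ZT9 against ZT3, limma adjusted p = 0.0885). Nr1d2 was at 36.7 and 22.9 at ZT3, 47.3 and 55.0 at ZT9, and 30.7 and 40.2 at ZT15 (limma adjusted p = 0.367). Bhlhe41 was at 3.52 and 1.49 at ZT3, 7.94 and 5.48 at ZT9, and 2.57 and 3.71 at ZT15 (limma adjusted p = 0.298). In both genes the ZT9 libraries were the highest, and ZT3 and ZT15 overlapped. Dbp itself, with summits of both lists that missed each other, was at 8.55 and 3.88 at ZT3, 281.3 and 114.7 at ZT9, and 12.5 and 28.1 at ZT15. Its ZT9 libraries were the highest and its ZT3 libraries the lowest (log2 difference 4.73 ± 0.680 for ZT9 against ZT3, limma adjusted p = 0.180).

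Sgk1, with a region 99 bp from its start, was at 175.6 and 189.8 FPKM at ZT3, 35.1 and 38.2 at ZT9, and 43.6 and 71.3 at ZT15. Its groups did not overlap, with ZT3 the highest (limma adjusted p = 0.195).

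**Figure D5:**
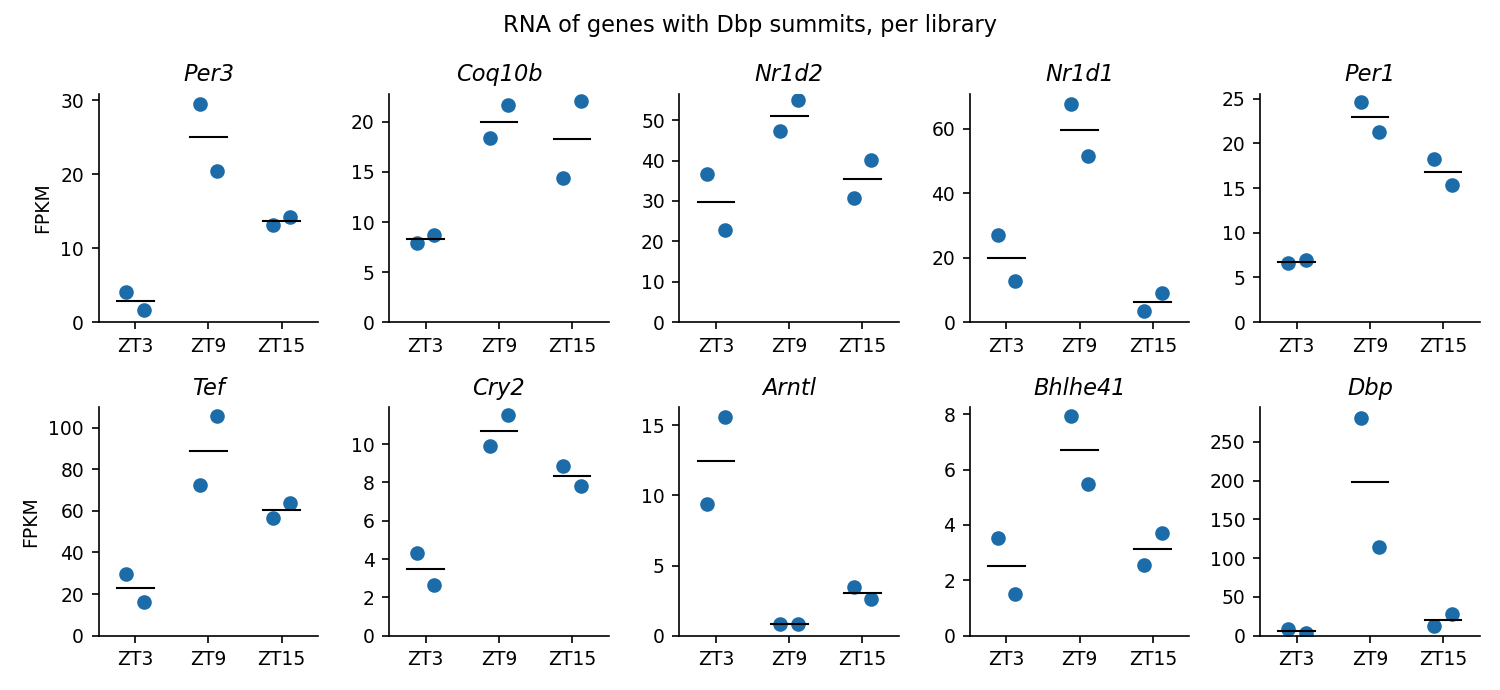
FPKM (y axis, from 0) of 10 genes with Dbp summits in each unirradiated library at ZT3, ZT9 and ZT15 (x axis), with points for libraries and a line for the mean of 2. Per3, Per1, Tef, Cry2, Nr1d1 and Dbp are highest at ZT9, and Arntl is highest at ZT3.

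Genes with a D-box in the window did not share one course. Of the 28 kept genes with a D-box in a window of both lists, 2 were at least 2-fold higher at ZT9 than ZT3 with no overlap, Per3 and Coq10b (7.14%), and none lower, beside 1.83% higher and 3.14% lower among kept genes with a start. At ZT15 against ZT3, Per3, Coq10b and Sumo2 were higher by the same rule (10.7%, beside 1.24%) and Acsm3, a medium-chain acyl-CoA synthetase, lower (3.57%, beside 1.82%). The median log2 difference of the 28 genes between ZT9 and ZT3 was 0.35, beside -0.01 over the 10688 kept genes with a start. Sumo2 was at 9.78 and 8.93 FPKM at ZT3, 16.9 and 10.5 at ZT9, and 49.4 and 23.6 at ZT15, highest at ZT15 in both libraries. Ogt was at 147.5 and 128.4 at ZT3, 62.5 and 94.8 at ZT9, and 91.7 and 139.2 at ZT15, lowest on average at ZT9. Yif1b and Hnrnpa2b1 stayed within 29.0 to 46.3 and within 315.5 to 386.8. The adjusted p of the limma F test was 0.269 for Sumo2, 0.359 for Ogt, 0.464 for Yif1b and 0.612 for Hnrnpa2b1.

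Among the 123 kept genes whose region was in the best 5% by rank, 2 were at least 2-fold higher at ZT9 than ZT3 with no overlap, again Per3 and Coq10b (1.63%), and 1 was lower, Cyp2b10, a drug-metabolising cytochrome P450 (0.813%). The share of higher genes was near the 1.83% of kept genes with a start, and that of lower genes was below their 3.14%, with no test of either. At ZT15 against ZT3, 4 genes were higher by the same rule (3.25%, beside 1.24%), which were Per3, Coq10b, Sumo2 and Gpr155, and Cyp2b10 was lower. Gpr155 was at 87.6 and 58.98 FPKM at ZT3, 83.0 and 120.0 at ZT9, and 276.7 and 239.9 at ZT15, above all others at ZT15 (limma adjusted p = 0.180). Cyp2b10 was at 45.7 and 73.5 FPKM at ZT3, 2.86 and 2.67 at ZT9, and 5.56 and 31.8 at ZT15 (limma adjusted p = 0.328). Every unirradiated library with Ddx3y, both of ZT3 and ZT15 replicate 2, had more of it than those with Xist. Sex and time cannot be told apart for this gene. Cyp2b10 and Gpr155 were named after their values were seen, as were Alas1, the D-box genes outside the clock and the genes named among those above 1000 FPKM beyond the 4 highest of their list.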

How the data were processed

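The authors deposited FPKM per gene for 10 RNA libraries and 1-bp summits with a score per summit for 6 CUT&Tag lists. Per the submitters' processing notes, which give no roles, the tools were Bowtie2, HISAT2, SAMtools and Cufflinks and the build was mm10. For versions, peak caller, control and the scale of the deposited score, the sources used here have no entry. Depth is unknown for both assays, so the number of libraries limits the precision. Per the labels, CUT&Tag reads were paired-end on a NovaSeq.

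Summits on chromosomes 1 to 19 and X were joined within 200 bp. Starts and promoter windows came from the RefSeq tables of GRCm38.p6 (32619 starts, 26794 genes, none on chromosome 18; 38677 of 55181 symbols matched). No genome was used, so motifs were counted in promoter windows in place of the planned windows around summits, in Python 3.11.15 with numpy, pandas and scipy 1.17.1. Genes that reached 1 FPKM in 2 or more libraries were fitted as log2(FPKM + 1) with limma 3.58.1 in R 4.3.3 (trend, 5 groups, 5 residual degrees of freedom) and tested across ZT3, ZT9 and ZT15 by an F test with Benjamini-Hochberg adjustment. Fold changes on this scale understate those of low genes. The pairing, fit and motif counts were tested on simulated data.

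Named were core clock genes, PAR bZIP genes with Nfil3, the 10 best-ranked regions and the 10 best at starts of kept genes. Also named were the 5 best of each list alone and up to 4 genes of a list with a region, by level. Bhlha15 was named as an acinar marker, and other exceptions are stated where they occur. Members and lists were chosen with earlier results of these data known; 2 list names that were synonyms of other members were removed. Alternatives covered distances, score limits, pseudocount, filter, scaling, libraries and the replicate number.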

Additional observations from a re-analysis of the deposited data

Results flagged for a closer look

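Both Dbp lists held summits outside chromosomes 1 to 19 and X, which entered no comparison above: 62 in replicate 1 and 30 in replicate 2. Of these, 7 and 9 were on the mitochondrial chromosome and 2 in each list on Y.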

How the results depend on the processing

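The number of regions was 8468 at 200 bp and 4925 at 50 bp. It was 4384 with the summits of each list at or above its median score, and 5633 with only as many top-scored summits of replicate 1 as replicate 2 holds; at 100, 500 and 1000 bp it stayed within 1.5 times. Genes with a region at the start numbered 2937, and 1673 with summits at or above the median score. With 1 list only, chosen after seeing the data, they numbered 3149 without replicate 1 and 9884 without replicate 2. The D-box share of windows was 2.07% at 500 bp and 2.03% at 50 bp, and leaving out ZT9 replicate 2 moved the ratio of median FPKM between genes with a region and genes with no summit from 4.36 to 4.23, both also chosen after seeing the data. Of genes with a mean above 1000 FPKM 42.1% had a region, and 84.6% of those above it in each of the 6 libraries, chosen after seeing the data.

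The limma F test called 3 genes, 7 with a pseudocount of 0.1, 24 with no filter, 0 with a mean FPKM of at least 5 (1379 at an unadjusted p under 0.05), 1 in the 6 unirradiated libraries alone, and 0 to 9 when 1 library was left out. The replicate block called 2; same-numbered libraries did not deviate together throughout (correlations between -0.141 and 0.473), so the numbers were not taken as pairs. Among genes with a region of both lists it called 0 under every alternative run, with 188 to 666 at an unadjusted p under 0.05.

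Of 390 values of 33 named genes, 388 kept their direction and side of the threshold. Per2 passed with a pseudocount of 0.1 (log2 difference 4.49 between ZT15 and ZT3, limma adjusted p = 0.0307), and Nt5dc1 reversed without ZT9 replicate 1 (from -0.651 to 0.065 between ZT9 and ZT3 over the libraries left out); the cause was not tested. Promoter windows hold few D-boxes, which limits every share by list and rank, and summits far from starts were not read for motifs.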
